A study of Mus musculus with 12 samples.

Results

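A set of 9 genes characteristic of striatal projection neurons was followed through 4 groups of mice in hematoma-adjacent brain tissue after intracerebral hemorrhage (ICH). They were taken by name and are 9 of the 21956 genes in the deposited table. Drd1 (ENSMUSG00000021478), Pdyn (ENSMUSG00000027400) and Tac1 (ENSMUSG00000061762) mark the direct pathway. Drd2 (ENSMUSG00000032259), Penk (ENSMUSG00000045573) and Adora2a (ENSMUSG00000020178) mark the indirect pathway. Ppp1r1b (ENSMUSG00000061718), Rgs9 (ENSMUSG00000020599) and Pde10a (ENSMUSG00000023868) are used by both. All 9 passed the filter on low counts in every comparison.

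Each of the 4 groups, Sham-Fabp4fl_fl, Sham-Fabp4CKO, ICH-Fabp4fl_fl and ICH-Fabp4CKO, held 3 mice with 1 poly(A) RNA-seq library each. Per the study's methods, hemorrhage was induced by collagenase injected into the right striatum, sham mice had the same surgery without collagenase, and tissue around the hematoma was taken 48 h later. Mice of all 4 groups carried floxed Fabp4, the gene for fatty acid-binding protein 4. The Fabp4CKO mice also carried a tamoxifen-inducible Cre recombinase driven by Tmem119, a microglial gene, so the deletion was directed at microglia and not at neurons. Per the methods, these mice were given tamoxifen before surgery to induce the knockout. Whether the Fabp4fl_fl mice received tamoxifen, and the age of the floxed mice, are not given in the sources used here. The genotype comparisons therefore cannot separate the deletion from Cre itself, nor from tamoxifen if the Fabp4fl_fl mice had none. The methods also state that operated mice without neurological deficits were left out.

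Projection neurons are the GABAergic output cells of the striatum and the great majority of its neurons. Direct-pathway cells carry the D1 dopamine receptor, which raises cAMP, and release substance P and dynorphin, whereas indirect-pathway cells carry the D2 dopamine receptor, which lowers cAMP, together with an adenosine receptor, and release enkephalin. Both use DARPP-32 (Ppp1r1b), the phosphodiesterase PDE10A and the G-protein regulator RGS9 downstream of these receptors.

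The libraries held between 15650813 and 22406216 estimated reads. Fabp4 was checked first. It had 46, 63 and 24 reads in the ICH-Fabp4fl_fl mice against 5, 3 and 10 in the ICH-Fabp4CKO mice, and 0 to 2 reads in the sham libraries. Several libraries stood apart. Sham-Fabp4fl_fl mice 1 and 2 had the highest mean level of 5 thalamic neuron genes, 7.28 and 6.84 on the log2 CPM scale against 3.47 to 5.60 in the other 10 libraries. Their counts of Slc17a6, a glutamate transporter gene of thalamic neurons, were 4412 and 2895, against 813 in mouse 3 of the same group. ICH-Fabp4fl_fl mouse 1 had the highest share of mitochondrial reads, 16.3%, against 7.90% to 11.9% elsewhere. ICH-Fabp4CKO mouse 1 had 1 read on Y-linked genes, where the other libraries had 1302 to 2251. Mice of a group are separate samples, and the p-values below measure only the spread between these samples.

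Levels are CPM, counts scaled to a common library total, after scaling by TMM, a correction for differences in RNA composition. Per kilobase of exon, as annotated in GENCODE M21, the order of levels in the Sham-Fabp4CKO group was Penk (491 ± 121 CPM per kb, SD, n = 3), Ppp1r1b (441 ± 147), Pde10a (93.6 ± 25.5), Adora2a (89.9 ± 28.7), Drd2 (81.3 ± 26.3), Rgs9 (46.9 ± 10.9), Drd1 (42.7 ± 10.7), Pdyn (38.9 ± 6.42) and Tac1 (35.9 ± 5.73). Neighbours in this order overlapped except Ppp1r1b and Pde10a. In all 4 groups the lowest Penk and Ppp1r1b levels per length lay above the highest level of any of the other 7 genes.

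The 9 genes differed widely among mice that had the same treatment. Within the 6 sham mice the highest level exceeded the lowest by 2.66-fold for Pdyn and by 3.27-fold to 4.47-fold for the other 8, and Adora2a, the gene of that adenosine receptor, ranged most. Over the 9865 genes with a mean of at least 10 CPM in the sham libraries, the median of the same ratio was 1.31, and 3.03% of them had a ratio at least as large as that of Pdyn. The same libraries were high or low for nearly all of the 9. Sham-Fabp4fl_fl mouse 1 was the lowest sham library for all 9, and the highest was Sham-Fabp4CKO mouse 2 for 7 genes and Sham-Fabp4fl_fl mouse 3 for Pdyn and Tac1. Over all 12 libraries the 36 pairs of genes had a median Pearson correlation of 0.93, from 0.67 for Pde10a with Penk to above 0.99; after removal of each group's mean the median was 0.93 and the lowest 0.82. These are descriptions, since the points share dissection and sequencing depth within each library.

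**Figure D1:**
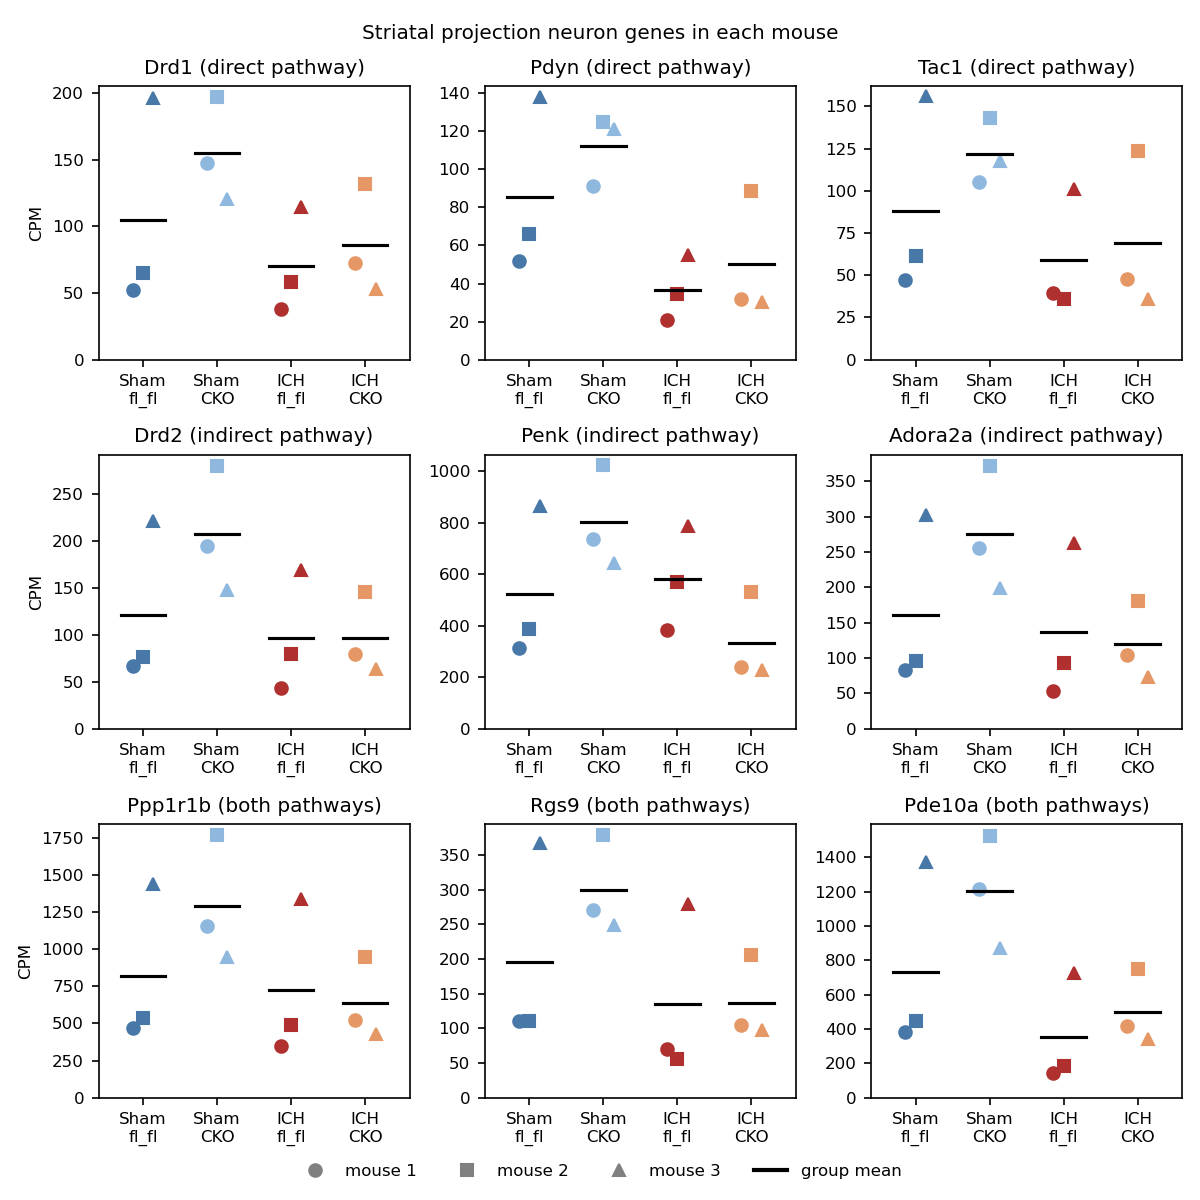
CPM (y axis, from 0) of each of the 9 genes in each of the 12 mice, by group (x axis), with 1 marker shape per mouse number and a line at the group mean. Mouse 3 of Sham-Fabp4fl_fl and of ICH-Fabp4fl_fl, and mouse 2 of Sham-Fabp4CKO and of ICH-Fabp4CKO, were the highest of their group for all 9 genes.

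The level of the 9 genes moved with that of the other striatal markers. Their mean log2 CPM correlated across the 12 libraries with that of 12 other genes shared by both kinds of projection neuron (r > 0.99, n = 12). Among the 6 sham mice it ran opposite to the 5 thalamic genes (r = -0.99) and to the 9 cortical excitatory neuron genes (r = -0.84, n = 6). The endothelial (r = -0.94), astrocyte (r = -0.93) and oligodendrocyte (r = -0.87) lists also ran opposite, so this was not particular to neurons of other regions. The striatal interneuron list, at 0.67, and the microglia list, at 0.28, did not. In the 6 ICH mice the thalamic and cortical values were above 0, at 0.56 and 0.45. The lists share the libraries and their total, so the values are given without a test. In the sham groups the mean of the 9 genes was 6.88 and 7.13 in Sham-Fabp4fl_fl mice 1 and 2, both of them with the high thalamic levels, and 8.06 to 8.71 in the other 4 mice. The part of thalamic tissue in the levels of the 9 genes was not tested. In bulk tissue, fewer projection neurons and less RNA per projection neuron cannot be told apart.

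**Figure D2:**
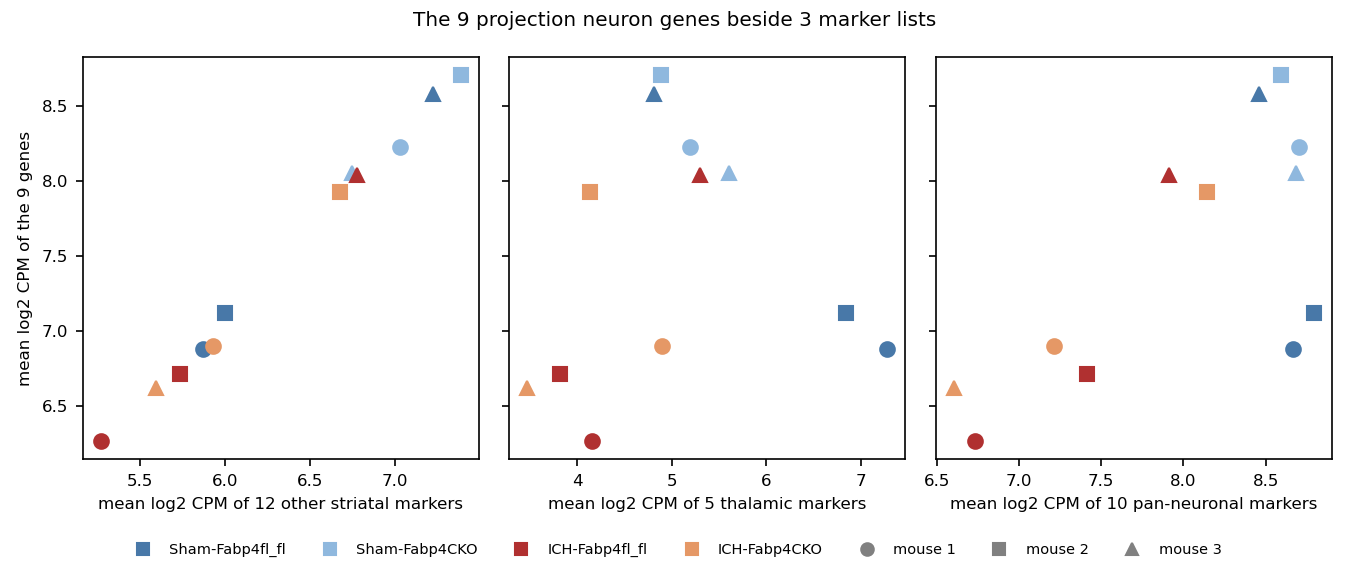
Mean log2 CPM of the 9 genes (y axis) against that of 12 other striatal projection neuron genes, 5 thalamic genes and 10 pan-neuronal genes (x axes), 1 point per mouse, coloured by group. The points lie along 1 line for the other striatal markers, and Sham-Fabp4fl_fl mice 1 and 2 lie to the right of all others for the thalamic genes.

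ICH was compared with sham in Fabp4fl_fl mice to ask what hemorrhage did to the 9 genes where microglial Fabp4 was intact. None of the 9 passed the adjusted threshold of 0.05 in edgeR's quasi-likelihood test, in a comparison in which 45.6% of all 14719 genes tested did (19.3% lower). Pdyn alone had an unadjusted p under 0.05, where 55.2% of all genes did, and DESeq2 called the same gene, with 51.4% of all genes. The median log2 fold change of the 9 was -0.51, against 0.02 over all genes tested, and 8 of the 9 were below 0. Groups overlapped for all 9, while 62% of all genes had groups that did not. In the same comparison 9 of 10 pan-neuronal genes and 8 of 9 cortical excitatory neuron genes were called lower. In Fabp4CKO mice 2 of 10 and 0 of 9 were, where 11.1% of all genes were. The pan-neuronal genes differed in how many passed the same threshold and hardly in effect size. Their median log2 fold change was -1.20 in Fabp4fl_fl and -1.19 in Fabp4CKO mice, with all 10 below 0 in both. The cortical medians were -2.95 and 0.13. The cortical list level was 4.09, 4.18 and 2.49 log2 CPM in the Sham-Fabp4fl_fl mice, where mice 1 and 2 stood above mouse 3, and 0.26, 0.27 and 1.14 in the ICH-Fabp4fl_fl mice.

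Among the direct-pathway genes, Pdyn, which encodes prodynorphin, the precursor of the dynorphin peptides, was at 51.9, 65.9 and 137.9 CPM in the Sham-Fabp4fl_fl mice and at 20.7, 34.4 and 54.8 CPM in the ICH-Fabp4fl_fl mice. Only the highest ICH value reached into the sham range. Its log2 fold change was -1.20 (standard error 0.45, adjusted p = 0.0622 in edgeR and 0.0141 in DESeq2). Drd1, the D1 dopamine receptor, was at 52.2, 65.3 and 195.8 CPM in sham and 38.1, 57.9 and 114.4 CPM after ICH, with mouse 3 far above mice 1 and 2 in each group. Its log2 fold change of -0.55 had a 95% confidence interval from -1.89 to 0.79. Tac1, which encodes the precursor of substance P, gave -0.56, from -1.84 to 0.71.

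Of the 6 members whose promoter could be examined, only Tac1 had a match to the cAMP response element half-site. The half-site is TGACG on either strand, sought in the 250 bases before the start. The RefSeq promoter table (GRCm38.p6) held 9 windows for 6 of the 9 genes, with Penk, Adora2a and Ppp1r1b not among them. Of all 32851 windows in it, 17.8% held the half-site, so nothing particular to Tac1 is read from its match. Both Tac1 stretches lie on the plus strand and are shown because this peptide gene is compared with Penk below. Without a Penk window no contrast of the 2 promoters can be drawn. The match is in capitals and reads as the reverse complement. A match is a description of the letters, not a bound site.
Tac1, chr6:7554851-7554880: ttccctaaaattgCGTCAtttcgaacacaa
Tac1, chr6:7555005-7555034: ggctctacaggctCGTCAcgcctgagataa

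Among the indirect-pathway genes, Penk, the enkephalin precursor, was the only member with a fold change above 0. It was at 313.6, 388.4 and 867.7 CPM in the Sham-Fabp4fl_fl mice and at 384.4, 570.1 and 787.3 CPM in the ICH-Fabp4fl_fl mice. The ICH values lay wholly inside the sham range. The log2 fold change was 0.17, with a 95% confidence interval from -0.82 to 1.16. Drd2, the D2 dopamine receptor, was at 67.0, 75.8 and 221.1 CPM in sham and at 43.0, 79.0 and 168.6 CPM after ICH. Its log2 fold change was -0.30 and that of Adora2a -0.21, and both intervals spanned 0.

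Among the genes of both pathways, Pde10a, which breaks down cAMP and cGMP, was at 379.5, 448.6 and 1373 CPM in the Sham-Fabp4fl_fl mice and at 142.6, 186.3 and 724.4 CPM in the ICH-Fabp4fl_fl mice. Mice 1 and 2 after ICH were below every sham mouse, and mouse 3 was not. The log2 fold change of -1.04 had an interval from -2.75 to 0.66 (adjusted p = 0.268, edgeR). Rgs9 and Ppp1r1b had log2 fold changes of -0.51 and -0.15. Without ICH-Fabp4fl_fl mouse 3, 3 of the 9 genes were called lower, Pdyn, Rgs9 and Pde10a, and without Sham-Fabp4fl_fl mouse 1 only Pdyn was. Without both Sham-Fabp4fl_fl mice of high thalamic level, which leaves 1 sham mouse assumed to vary like the other groups, 0 were called, Pdyn was at -1.88, Pde10a at -1.94 and Penk turned to -0.55.

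ICH was then compared with sham in Fabp4CKO mice. All 9 genes were lower on average, with a median log2 fold change of -1.12, against 0.01 over all genes tested. A count of 2 passed the adjusted threshold in edgeR's test, where 35.6% of 14737 genes did in either direction and 11.1% did as lower. The 2 genes were Pde10a and Rgs9, and 7 of the 9 had an unadjusted p under 0.05, as did 52.4% of all genes. In 6 of the 9, groups did not overlap, each time with ICH lower, which was so for 30.3% of all genes. With DESeq2 7 of the 9 were called, where 52.2% of all genes were.

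Pde10a was at 1212, 1524 and 870.2 CPM in the Sham-Fabp4CKO mice and at 415.1, 746.3 and 341.5 CPM in the ICH-Fabp4CKO mice. Every ICH mouse was below every sham mouse. The log2 fold change was -1.24 (standard error 0.37, adjusted p = 0.0433, edgeR). Rgs9, which speeds the shut-off of G-protein signaling in these neurons, was at 270.0, 378.6 and 249.6 CPM in sham and at 104.1, 206.5 and 97.9 CPM after ICH, again without overlap. Its log2 fold change was -1.12 (standard error 0.35, adjusted p = 0.0481, same test). Ppp1r1b, the DARPP-32 gene, was at -1.01 with adjusted p = 0.0809.

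The indirect-pathway genes followed closely behind without passing. Penk was at 738.1, 1024 and 645.9 CPM in the Sham-Fabp4CKO mice and at 240.5, 532.0 and 228.8 CPM in the ICH-Fabp4CKO mice, with no overlap. Its log2 fold change was -1.25 (standard error 0.39, adjusted p = 0.0502, edgeR). Drd2 was at -1.09 and Adora2a at -1.19, with adjusted p = 0.0647 and 0.0572, and neither had overlapping groups. The direct-pathway genes were at -1.14 for Pdyn, -0.84 for Drd1 and -0.80 for Tac1, and only Pdyn had groups that did not overlap. Drd1 was at 147.2, 197.2 and 120.6 CPM in sham and at 72.5, 131.5 and 53.0 CPM after ICH, where mouse 2 reached into the sham range.

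The count of 2 called genes in Fabp4CKO mice depended on single libraries. It was 9 without ICH-Fabp4CKO mouse 2, and 0 without any 1 of the other 5 libraries, including ICH-Fabp4CKO mouse 1 with its lack of Y-linked reads. ICH-Fabp4CKO mouse 2 had the highest level of all 9 genes in its group. It also had the lowest mean level of 6 infiltrating myeloid cell genes, 4.74 log2 CPM against 6.86 and 6.71 in mice 1 and 3, while the 3 Sham-Fabp4CKO mice were between -0.48 and 0.21. The same mouse had the highest pan-neuronal level of its group, 8.14 against 7.21 and 6.60. Its cortical excitatory neuron level was the highest too, 3.97 against 2.35 and 2.83. Over the ICH mice the 9 genes correlated at r = 0.91 with the pan-neuronal list and at -0.56 with the myeloid list. All 6 myeloid genes were higher after ICH in both genotypes. The part of infiltrating cells, or of neuronal RNA in general, in the level of the 9 genes was not tested.

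**Figure D3:**
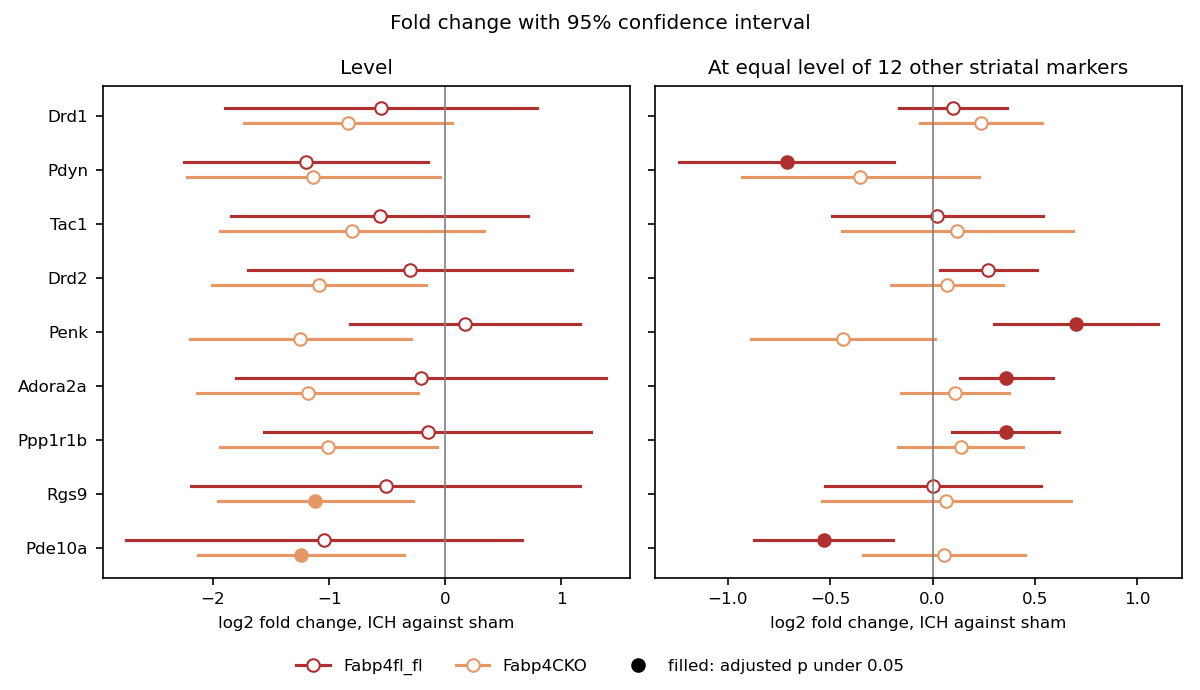
Log2 fold change of ICH against sham with its 95% confidence interval (x axis) for each gene in Fabp4fl_fl and Fabp4CKO mice; filled points passed an adjusted p of 0.05. Left, the levels themselves; right, the same comparison at an equal level of 12 other striatal markers, on a narrower axis. On the left only Rgs9 and Pde10a in Fabp4CKO mice are filled, and on the right Pdyn, Penk, Adora2a, Ppp1r1b and Pde10a in Fabp4fl_fl mice are.

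The genotypes were compared within each treatment to ask what microglial Fabp4 deletion changed. In sham mice, all 9 genes were higher on average in Fabp4CKO, by 0.40 (Pdyn) to 0.78 (Adora2a) on the log2 scale. None was called by edgeR, none had an unadjusted p under 0.05 and none was called by DESeq2, in a comparison in which 0.111% of 14395 genes were called by edgeR, 10.2% had an unadjusted p under 0.05 and 1.04% were called by DESeq2. Groups overlapped for all 9, where 14.9% of all genes had groups that did not, and Sham-Fabp4fl_fl mouse 3 was above the lowest Fabp4CKO mouse for every one. The direction rested on few mice. Without Sham-Fabp4fl_fl mouse 3 all 9 were called higher, by 0.93 to 1.61 on the log2 scale, and without mice 1 and 2 of that group all 9 turned below 0, from -0.09 to -0.35, with 0 called.

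After ICH, none of the 9 genes differed by genotype in edgeR's test, none had an unadjusted p under 0.05 and DESeq2 called none, and of 14600 genes 0% were called by edgeR, 12.2% had an unadjusted p under 0.05 and 3.96% were called by DESeq2. Groups overlapped for all 9, where 19.8% of all genes had groups that did not. The median log2 fold change of the 9 was 0.00. Penk had the largest value, -0.80 (95% confidence interval -1.84 to 0.24, adjusted p = 0.495, edgeR), with overlapping groups. Pde10a stood at 0.51 and Pdyn at 0.46, both with intervals spanning 0. The intervals of the 9 genes reached past 1 on the log2 scale in at least 1 direction, so a 2-fold difference of genotype was not detectable at this spread.

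The interaction asks whether the ICH effect differed between genotypes. No member was called, where 0.0199% of 15089 genes were, and DESeq2 called none, with 1.76% of all genes. At an unadjusted p under 0.05 stood 9.94% of all genes. Penk alone had an unadjusted p under 0.05, and its ICH effect was lower in Fabp4CKO by 1.45 on the log2 scale (an interaction of -1.45, standard error 0.62, unadjusted p = 0.0398, adjusted p = 0.468, edgeR). The other 8 lay between -0.995 for Adora2a and 0.03 for Pdyn. Both ICH effects rest on their own sham group, and the Sham-Fabp4fl_fl group holds both mice of high thalamic level; without those mice the Penk interaction was -0.73.

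Direct and indirect markers were compared as a ratio within each mouse, in which any factor common to both genes cancels. The log2 ratio of Drd1 to Drd2, the receptors that define the pathways, averaged -0.25 ± 0.10 (SD, n = 3) in Sham-Fabp4fl_fl, -0.40 ± 0.11 in Sham-Fabp4CKO, -0.40 ± 0.20 in ICH-Fabp4fl_fl and -0.18 ± 0.08 in ICH-Fabp4CKO. The mean difference of ICH from sham over both genotypes was 0.04 (p = 0.69, exact two-sided permutation test within genotypes, n = 12, adjusted p = 0.69). The log2 ratio of Tac1 to Penk, the leading peptide genes, averaged -2.62 ± 0.13, -2.70 ± 0.21, -3.41 ± 0.53 and -2.37 ± 0.29 in the same order of groups. Its mean difference was -0.23 (p = 0.415, same exact test, adjusted p = 0.69). The smallest p these 400 permutations allow is 0.005. Neither ratio thus shifted with ICH beyond the spread between mice when the genotypes were pooled.

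The genotypes moved in opposite directions for both ratios. The Tac1 to Penk ratio was lower after ICH by 0.79 on the log2 scale in Fabp4fl_fl mice (a difference of -0.79) and higher by 0.33 in Fabp4CKO mice. All 3 ICH-Fabp4fl_fl mice, at -3.28, -3.99 and -2.96, were below all 9 other mice, of which the lowest was at -2.84. The Drd1 to Drd2 ratio differed by -0.14 and 0.22. A test of the difference between genotypes was added after these directions were seen. It permuted the genotype labels within sham and within ICH. It gave 1.12 for Tac1 to Penk (p = 0.03) and 0.36 for Drd1 to Drd2 (p = 0.04, both two-sided permutation tests, adjusted p = 0.04 for both). Such a test is exact only for the absence of any genotype difference in either treatment. A genotype difference in 1 treatment alone also breaks that premise, so the p-values are approximate for equal ICH effects. The p stayed under 0.05 in only 5 of 12 fits that left out 1 mouse for Tac1 to Penk and in 3 of 12 for Drd1 to Drd2.

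**Figure D4:**
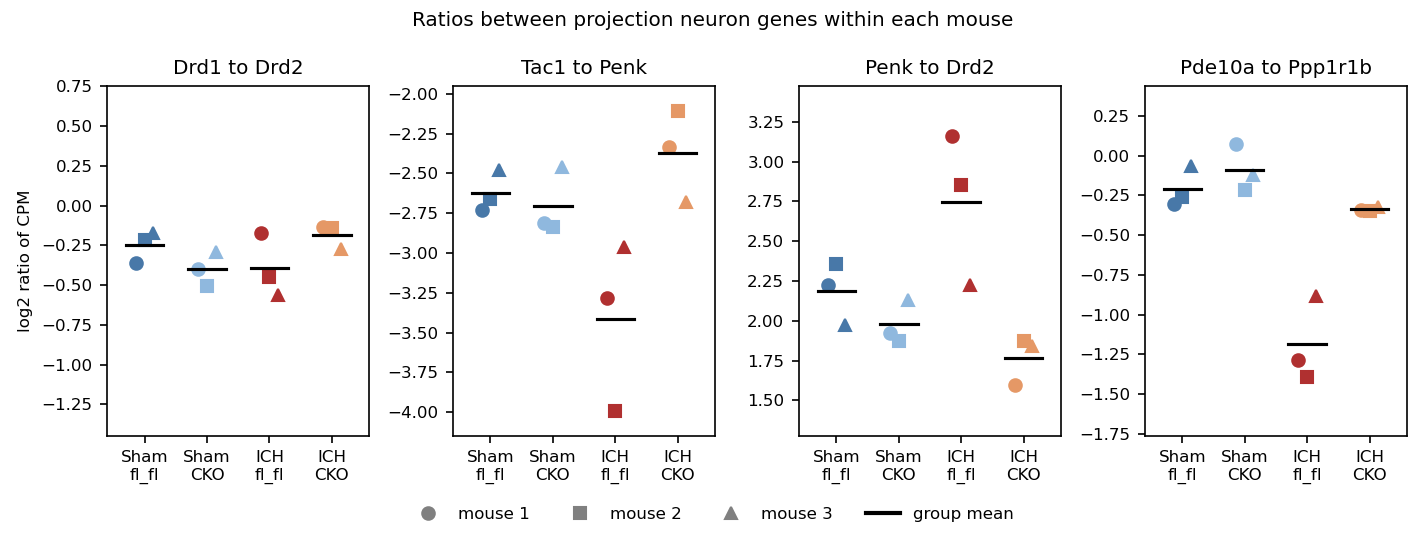
Log2 ratio of CPM (y axis, the same span in each panel) between pairs of projection neuron genes within each mouse, by group, with lines at the group means. The ICH-Fabp4fl_fl mice lie below all other mice for Tac1 to Penk and for Pde10a to Ppp1r1b, and 2 of them lie above all other mice for Penk to Drd2.

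Penk differed from the other genes of its pathway. The log2 ratio of Penk to Drd2 was 2.23, 2.36 and 1.97 in the Sham-Fabp4fl_fl mice, 1.92, 1.87 and 2.13 in the Sham-Fabp4CKO mice, 3.16, 2.85 and 2.22 in the ICH-Fabp4fl_fl mice and 1.59, 1.87 and 1.84 in the ICH-Fabp4CKO mice. Mice 1 and 2 of ICH-Fabp4fl_fl stood above all others, and mouse 3 lay within the sham range. The ratio of Penk to Adora2a showed the same order, with group means of 1.82, 1.56, 2.35 and 1.47. Tac1 relative to the 12 other striatal markers had group means of -0.10, -0.13, -0.22 and -0.17, all within 1 SD of each other. Penk relative to the same markers was at 2.52 ± 0.09, 2.57 ± 0.06, 3.19 ± 0.31 and 2.201 ± 0.20 (SD, n = 3).

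Pde10a moved apart from Ppp1r1b, although both are shared by the pathways. Their log2 ratio was -0.31, -0.26 and -0.07 in the Sham-Fabp4fl_fl mice and 0.07, -0.22 and -0.12 in the Sham-Fabp4CKO mice. It was -1.29, -1.40 and -0.88 in the ICH-Fabp4fl_fl mice and -0.34, -0.35 and -0.33 in the ICH-Fabp4CKO mice. The ICH-Fabp4fl_fl mice thus lay below all others without overlap. Pdyn relative to Drd1 was also lower after ICH, with group means of -0.17 and -0.45 in sham and -0.90 and -0.85 after ICH, in the order Fabp4fl_fl and Fabp4CKO. The Fabp4fl_fl groups did not overlap, with sham at -0.00796, 0.0134 and -0.51 and ICH at -0.88, -0.75 and -1.06, and the Fabp4CKO groups did. These ratios were chosen after the values were seen and carry no test.

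A further fit, also added after the ratios were seen, compared the groups at an equal level of the 12 other striatal markers, whose mean log2 CPM entered as a covariate over all 12 libraries. Its fold changes are relative to those markers and not levels. In Fabp4fl_fl mice 5 of the 9 genes were called, where 48.2% of 15089 genes were (20.9% lower and 27.3% higher). Penk was higher after ICH by 0.70 on the log2 scale (standard error 0.18, adjusted p = 0.00978, edgeR), Adora2a by 0.36 (adjusted p = 0.0151) and Ppp1r1b by 0.36 (adjusted p = 0.0286). Pdyn was lower, at -0.71 (adjusted p = 0.0303), and so was Pde10a, at -0.53 (adjusted p = 0.0159). Drd2, the other indirect-pathway gene of the 9, was also above 0, at 0.27, without being called (adjusted p = 0.0552, edgeR). The indirect-pathway markers outside the 9 did not share the higher direction of Penk, Adora2a and Drd2. In the same fit all 6 other indirect-pathway markers were below 0, with a median of -0.27, 2 called lower and 0 higher, and of the 7 other direct-pathway markers 0 were called, with a median of -0.04.

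In Fabp4CKO mice the same fit called 0 of the 9 genes, none with an unadjusted p under 0.05 and none with DESeq2, where 19.2% of all genes were called. There Penk was at -0.44 and Pde10a at 0.06 relative to the other markers. The level of the 12 markers did not overlap between these groups. It was 6.75 to 7.39 log2 CPM in Sham-Fabp4CKO and 5.59 to 6.67 in ICH-Fabp4CKO. No Fabp4CKO mice were thus compared at an observed equal level, and this result rests on the fitted slope. In sham, 0 of the 9 differed by genotype, none with an unadjusted p under 0.05 and none with DESeq2, where 0.113% of genes were called. After ICH, 2 of the 9 differed by genotype, where 6.67% of genes did (3.27% lower and 3.39% higher). Penk was lower in Fabp4CKO, at -1.04 (standard error 0.17, adjusted p = 0.0149), and Pde10a higher, at 0.56 (standard error 0.15, adjusted p = 0.0496, both edgeR). Markers of other cell types also differed between these groups. All 6 oligodendrocyte and all 5 endothelial genes were lower in ICH-Fabp4CKO without overlap, and 4 of 9 cortical excitatory neuron genes were called higher in this fit. The oligodendrocyte list level was 10.54 to 10.85 log2 CPM in ICH-Fabp4fl_fl and 9.04 to 9.75 in ICH-Fabp4CKO, and the endothelial level 6.24 to 7.27 and 5.22 to 5.71. Their part in the Penk and Pde10a differences was not tested. The interaction of ICH and genotype in this fit called 0 of the 9 (2 with an unadjusted p under 0.05), where 0.0994% of genes were called, with Penk at -1.14 (adjusted p = 0.111) and Pde10a at 0.59 (adjusted p = 0.264). The Penk interaction was called by DESeq2, and by edgeR in 3 of 12 fits that left out 1 mouse, those without Sham-Fabp4fl_fl mouse 3, ICH-Fabp4fl_fl mouse 3 or ICH-Fabp4CKO mouse 2.

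These relative results varied in how far they held. Penk after ICH kept its genotype call in 11 of 12 fits that left out 1 mouse and lost it without ICH-Fabp4CKO mouse 3 (adjusted p = 0.0624), whereas Pde10a lost its call in 9 of 12. With the mean of 22 dopamine and cAMP signaling genes as the covariate, Penk stayed called, at -1.14, and Pde10a did not, at 0.45 (adjusted p = 0.1003). With that covariate, the lower calls of Pdyn and Pde10a after ICH in Fabp4fl_fl mice were lost, at -0.37 (adjusted p = 0.273, edgeR) and -0.0910 (adjusted p = 0.723, edgeR), and Drd2, Penk, Adora2a and Ppp1r1b were called higher. The 5 calls in Fabp4fl_fl mice fell to 0 without Sham-Fabp4fl_fl mouse 1, 1 without mouse 2, 3 without ICH-Fabp4fl_fl mouse 1 and 2 without ICH-Fabp4fl_fl mouse 3.

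The other genes of these neurons were taken from lists. Their counts stand beside the share of all genes called lower, 19.3% in Fabp4fl_fl mice and 11.1% in Fabp4CKO mice, and nothing particular to a list is read from them. Of 7 other direct-pathway markers, 0 were called after ICH in Fabp4fl_fl mice and 1, Sfxn1, was lower in Fabp4CKO mice. Of 6 other indirect-pathway markers, Grik3, a kainate receptor subunit gene, was lower in Fabp4fl_fl mice at -1.30 (adjusted p = 0.0281), and in Fabp4CKO mice the receptor gene Gpr52 was lower at -1.33 (adjusted p = 0.0443) and Plxdc1 higher at 1.13 (adjusted p = 0.0212, all edgeR). Of 12 other shared markers, 1 (Foxp2) was lower in Fabp4fl_fl mice and 3, among them Foxp1 and Zfp503, were lower in Fabp4CKO mice. The median log2 fold changes of these lists in the Fabp4fl_fl and Fabp4CKO mice were -0.21 and -0.61 (direct), -0.66 and -1.03 (indirect) and -0.44 and -0.89 (shared), beside -0.51 and -1.12 for the 9 genes.

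Downstream of the receptors, 3 of 22 dopamine and cAMP signaling genes were lower in Fabp4fl_fl mice and 5 in Fabp4CKO mice, and none was higher. The protein kinase A catalytic subunit gene Prkacb was lower in both, at -1.04 (adjusted p = 0.0270) and -0.92 (adjusted p = 0.0208), and Ptpn5, the striatal phosphatase STEP, was lower in Fabp4CKO mice at -1.25 (adjusted p = 0.0400, all edgeR). Receptors for the peptides and for cannabinoids were called lower for 2 of 6 genes in Fabp4fl_fl mice and 5 of 6 in Fabp4CKO mice. Oprm1, the mu opioid receptor that binds enkephalin, was at -2.81 (adjusted p = 0.0150) and -2.18 (adjusted p = 0.0393), though at mean levels of only 0.37 to 3.82 CPM, and Cnr1, the cannabinoid receptor of striatal terminals, was at -1.68 in Fabp4CKO mice (adjusted p = 0.0480, same test). Of 6 genes that process neuropeptides, 4 were lower in Fabp4fl_fl mice and 3 in Fabp4CKO mice, with the prohormone convertase gene Pcsk1 at -2.54 (adjusted p = 0.00248) and -1.92 (adjusted p = 0.0296, same test).

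The genes whose pattern over all 12 libraries was most like the mean of the 9 genes, among 14187 genes with a mean of at least 1 CPM, included Adcy5 (r > 0.99), Cpne5, Actn2, Arpp21 and Bcr, all with r of at least 0.98. Adcy5, the adenylyl cyclase of these neurons, was at a group mean of 442.4 CPM in ICH-Fabp4CKO and 988.6 CPM in Sham-Fabp4CKO. With each group's mean removed, the 6 were Bcr, Adcy5, Nedd4l, Cpne5, Sh2d5 and Ptpn5, again with r of at least 0.98 over 12 libraries. Arpp21, Adcy5 and Ptpn5 were already in the lists.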

How the data were processed

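Poly(A) RNA from 12 mouse brain tissue samples, 3 per group, was measured by RNA-seq. The authors deposited 1 table of estimated counts per gene, not normalized. The submitters' processing notes list Bowtie2 2.2.8, HISAT2, StringTie 1.3.1 and DESeq2 without roles. The genome build is not given in the sources used here. Groups came from the sample labels.

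The deposited estimated counts were rounded to whole numbers and genes with low counts were removed by filterByExpr (minimum 10 counts, 15 in total). Each comparison was fitted over all genes of the groups compared with edgeR 4.0.16 (R 4.3.3, limma 3.58.1), using TMM scaling and the quasi-likelihood test with Benjamini-Hochberg adjustment at 0.05. The interaction used all 12 libraries. DESeq2 1.42.0, other scalings and filters, a replicate block and leaving out each library were alternatives. List levels are means of log2 CPM with a prior count of 2. The ICH effect on ratios within mice was tested by exact two-sided permutation of treatment within genotypes. The difference of ICH effects between genotypes was tested by permuting genotype within sham and within ICH. Scripts were tested on simulated data. The covariate fit, the difference of ICH effects on ratios and the fit without both sham libraries of high thalamic level were added after the data were seen.

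The rule for the 9 genes lists names and uses no measured value, but the genes and the lists were chosen with earlier results of these data known. Besides the 9, any tested gene of the projection neuron, signaling, receptor and peptide lists could be named with its list's count, as could the first 2 genes of each cell type list, the 6 genes most like the 9 by each of 2 measures, and Fabp4. Not all of these are named, and 1 gene that the rule would name is not reported here. Exon lengths came from GENCODE M21, and promoter sequence from RefSeq (GRCm38.p6). Depth was 15650813 to 22406216 estimated reads per library, so the spread between mice limited precision more than counting did. No 2 libraries held identical values.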

Additional observations from a re-analysis of the deposited data

Results flagged for a closer look

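The effect of ICH on 2 ratios of direct to indirect markers differed between the genotypes. For Tac1 to Penk the ICH effect was -0.79 in Fabp4fl_fl mice and 0.33 in Fabp4CKO mice on the log2 scale. The difference was 1.12 (two-sided permutation of genotype within treatment, n = 12, p = 0.03, adjusted p = 0.04). Leaving out 1 mouse at a time gave differences of 0.83 to 1.35 with p from 0.01 to 0.075, and the p reached 0.05 or more in 7 of 12 fits.

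For Drd1 to Drd2 the effects were -0.14 and 0.22, a difference of 0.36 (two-sided permutation of genotype within treatment, n = 12, p = 0.04, adjusted p = 0.04). Leaving out 1 mouse at a time gave 0.28 to 0.47 with p from 0.015 to 0.09, and the p reached 0.05 or more in 9 of 12 fits. Both tests were chosen after the directions had been seen, so their p-values are not those of a planned comparison.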

How the results depend on the processing

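The number of the 9 genes called after ICH in Fabp4fl_fl mice was 0, and became 1 with DESeq2 and 4 with a replicate block; leaving out 1 library gave 0 to 3. In Fabp4CKO mice it was 2, and became 4 with relative log expression scaling, 1 without TMM, 7 with DESeq2, 7 with the replicate block and 1 with all 12 libraries in 1 fit; leaving out 1 library gave 0 to 9. For the genotypes in sham, leaving out 1 library gave 0 to 9. At an equal striatal marker level, the 5 calls in Fabp4fl_fl mice became 3 without TMM, 4 with the dopamine and cAMP covariate (0 of them lower) and 4 with the replicate block, the 2 genotype calls after ICH became 1 without TMM, 1 with the dopamine and cAMP covariate and 1 with the replicate block, and the interaction became 1 with DESeq2. Leaving out 1 library gave ranges of 0 to 6, 0 to 2 (Fabp4CKO), 0 to 2 (genotypes after ICH) and 0 to 1 (interaction). The cause of these changes was not tested.

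Replicate numbers are shared by the groups, but same-numbered mice did not deviate together (r = 0.20, 0.02 and 0.13 in Fabp4fl_fl mice, and -0.58 to 0.31 between the genotypes after ICH), so the numbers are not taken as pairs. With the replicate block the ratio tests gave p = 0.781 for Drd1 to Drd2 and p = 0.469 for Tac1 to Penk (exact permutation). Genotype differences after ICH near 0 turned sign under the block for Drd2 (0.15), Adora2a (0.0900) and Ppp1r1b (0.00505), as did the Pdyn interaction (-0.00877). For Rgs9, at 0.00 after ICH between the genotypes, the sign turned with relative log expression (-0.00814), without TMM (-0.0235), with DESeq2 (-0.00793), with no filter (-5.9e-05) and with all 12 libraries (-0.0246).

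Without both sham libraries of high thalamic level, Penk after ICH in Fabp4fl_fl mice was -0.55. The genotype differences in sham were -0.33 (Drd1), -0.29 (Pdyn), -0.35 (Tac1), -0.0894 (Drd2), -0.11 (Penk), -0.13 (Adora2a), -0.15 (Ppp1r1b), -0.29 (Rgs9) and -0.19 (Pde10a), and the interactions were 0.58 (Drd1), 0.55 (Tac1), 0.0419 (Drd2), 0.26 (Rgs9) and 0.66 (Pde10a). Leaving out 1 library moved the ICH effect in Fabp4fl_fl mice over -0.13 to 0.69 (Penk), -1.10 to 0.22 (Drd1), -1.20 to 0.0777 (Tac1), -0.97 to 0.40 (Drd2), -1.11 to 0.57 (Adora2a), -0.94 to 0.49 (Ppp1r1b) and -1.61 to 0.26 (Rgs9). It moved the genotype difference after ICH over -0.17 to 0.80 (Drd1), -0.44 to 1.07 (Rgs9), -0.50 to 0.84 (Tac1), -0.44 to 0.62 (Drd2), -0.63 to 0.68 (Adora2a), -0.61 to 0.56 (Ppp1r1b) and -0.24 to 0.84 (Pdyn). It moved the interaction over -1.13 to 0.20 (Drd1), -1.0001 to 0.34 (Tac1), -1.03 to 0.83 (Pde10a), -0.67 to 0.41 (Pdyn) and -1.44 to 0.42 (Rgs9). The Drd1 to Drd2 difference ranged from -0.0194 to 0.0768, and the differences of ICH effects from 0.28 to 0.47 and from 0.83 to 1.35. Of 769 values for single genes under alternatives, 617 kept direction and side of the threshold, 46 lost a call, 40 gained one and 66 turned sign, 0 of which had been called.

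Over all genes, calls numbered 16 with edgeR and 150 with DESeq2 for the genotypes in sham (2 with a minimum of 10 counts in every library), 0 and 578 after ICH (362 with all 12 libraries), and 3 and 266 for the interaction. With 3 mice a group, the spread between mice limits what can be detected more than read depth does.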
